A study of Mus musculus with 9 samples.

Results

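The genes described here encode the machinery that opens replication origins and copies DNA at the fork. They were chosen by name: 46 symbols, all of which were found in both gene tables that the authors deposited, among 22631 genes in the first table and 27775 in the second. The series sequenced total RNA, depleted of ribosomal RNA, of satellite cells that were taken from the hindlimb muscle of mice aged 9 weeks and activated in culture. These cells are the resident stem cells of muscle, and the series asks about their proliferation and differentiation. Mutant mice lacked Uhrf1 in satellite cells and received tamoxifen, which sets off recombination by Cre, as 150 µl of a 20 mg/ml solution on each of 5 days. Cre Control mice also received tamoxifen and Control mice received oil, with 3 libraries per group in the labels, and Mutant and Control cells were grown for 3 days at 5000 cells/cm2. The labels leave out the promoter behind Cre, the alleles of each group, and whether each library is an animal of its own. The p-values therefore measure how far libraries differ, which may be technical. The first gene table compares Mutant with Control. The second compares arms named PT and PUT, which the labels do not tie to any group. Whether both comparisons share libraries is not stated. Treatment and Uhrf1 loss cannot be told apart in the first comparison, because Control mice received oil.

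Replication is prepared in G1, when the origin recognition complex (Orc proteins), Cdc6 and Cdt1 load the ring-shaped helicase Mcm2 to Mcm7 onto DNA, a step called licensing. In S phase Cdc45 and the GINS complex join the ring and turn it into the active helicase. DNA polymerases alpha, delta and epsilon, the sliding clamp PCNA and its loader RFC then copy both strands, while chaperones put histones onto the new DNA. Uhrf1 binds hemimethylated DNA behind the fork and recruits the maintenance methyltransferase there. In satellite cells, which rest outside the cell cycle, these genes come on with activation. Many of them are known targets of E2F transcription factors.

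The promoters of these genes are shown first because E2F motifs are a well known feature of such genes. RefSeq promoter windows (GRCm38.p6), from 250 bases before to 50 after a start site, were found for 38 of the 46 members. Gmnn, Mcm4, Gins1, Gins2, Gins4, Prim2, Pole and Rfc2 were not matched. The E2F motif was searched on both strands as 4 words, TTTGGCGC, TTTCCCGC, TTTGCCGC and TTTCGCGC. At least 1 word was present in 15 of the 38 matched members (39.5%), against 704 of all 27025 genes with a window (2.6%). These counts take every listed start site of a gene. Here and for the boxes below, all genes with a window were counted whether expressed or not. No share matched for expression or base composition was computed. The 15 members were Orc1, Cdc6, Cdt1, Dtl, Mcm3, Mcm5, Mcm6, Mcm7, Gins3, Pola1, Pole2, Pold1, Pold3, Rfc3 and Lig1. Together they held 21 matches, of which 2 pairs overlapped, in Mcm5 and Mcm6, and 14 matches began within 60 bases of the start site. Since the window ends 50 bases after the start site, every match that began past the start site falls within that distance. No such count was made over all genes. In 9 members a match lay wholly before the start site, and in 6 all matches reached past it. The stretches before the start site around those matches are printed with the E2F words in capitals, 5′ to 3′ on the strand of the gene, with 20 bases on either side or up to the start site.
Orc1 (chr4:108579407-108579453, plus strand): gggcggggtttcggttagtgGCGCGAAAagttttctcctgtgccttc
Cdc6 (chr11:98907993-98908040, plus strand): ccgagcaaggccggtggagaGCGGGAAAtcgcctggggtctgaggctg
Dtl (chr1:191575545-191575572, minus strand): atcagaaagcgtgacgtcagTTTGGCGC
Mcm5 (chr8:75109336-75109387, plus strand): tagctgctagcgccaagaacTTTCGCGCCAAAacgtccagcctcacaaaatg
Mcm6 (chr1:128359725-128359835, minus strand): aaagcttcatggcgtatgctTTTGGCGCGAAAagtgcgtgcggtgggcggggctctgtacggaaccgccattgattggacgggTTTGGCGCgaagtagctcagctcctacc
Mcm7 (chr5:138172021-138172068, minus strand): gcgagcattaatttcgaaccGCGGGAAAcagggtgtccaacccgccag
Gins3 (chr8:95633498-95633545, plus strand): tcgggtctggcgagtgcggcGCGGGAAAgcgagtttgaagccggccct
Pola1 (chrX:93632266-93632313, minus strand): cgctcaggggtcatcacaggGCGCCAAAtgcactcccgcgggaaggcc
Rfc3 (chr5:151651209-151651238, minus strand): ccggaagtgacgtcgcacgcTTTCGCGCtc

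Mcm5 carried 2 overlapping words on opposite strands, and Mcm6 carried such a pair plus 1 more word nearer the start site. The CCAAT box (CCAAT) was found in 24 of the 38 matched members (63.2%), against 41.1% of all genes with a window. The GC box (GGGCGG) was found in 28 of 38 (73.7%), against 38.2% of all genes. Rrm2, the most abundant member, held none of the E2F words, and neither did Pcna. The 150 bases before their start sites are printed with CCAAT and GC boxes, on either strand, in capitals, since they are the most abundant members.
Rrm2 (chr12:24708104-24708253, plus strand): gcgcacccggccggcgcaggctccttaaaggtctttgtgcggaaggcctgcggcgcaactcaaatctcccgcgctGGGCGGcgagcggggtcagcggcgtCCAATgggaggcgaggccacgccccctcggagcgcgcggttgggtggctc
Pcna (chr2:132253181-132253330, minus strand): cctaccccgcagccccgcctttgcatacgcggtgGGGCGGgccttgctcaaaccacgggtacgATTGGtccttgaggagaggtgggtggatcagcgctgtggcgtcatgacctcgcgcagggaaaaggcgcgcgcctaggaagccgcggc
A match describes these letters only, and no binding was measured.

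**Figure D1:**
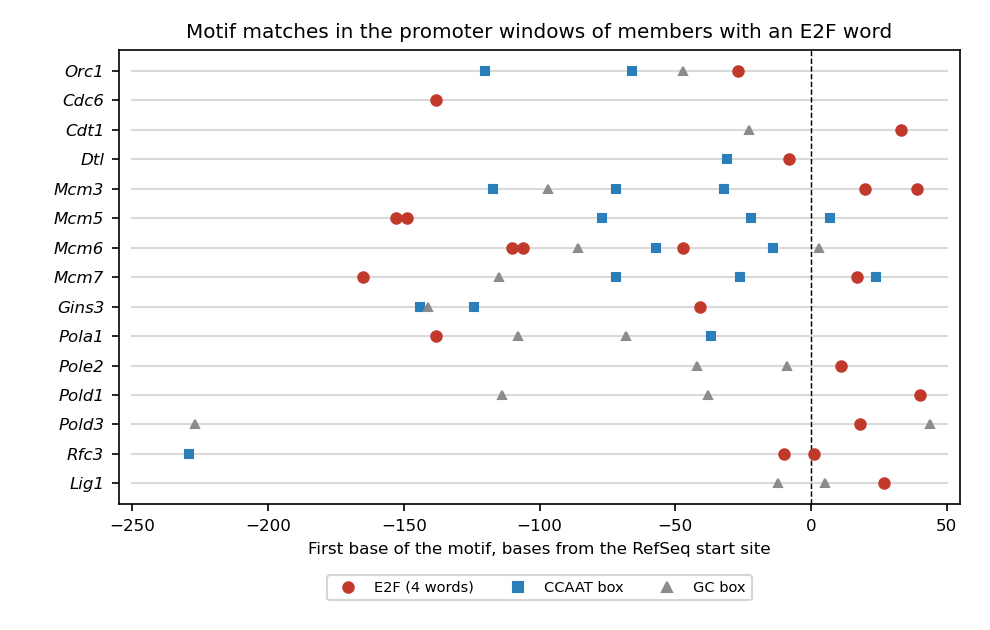
Position of motif matches in the 300-base promoter windows of the 15 members with an E2F word. The x axis is the distance in bases from the RefSeq start site (dashed line) to the first base of a match, and symbols stand for E2F words (circles), CCAAT boxes (squares) and GC boxes (triangles). Of the 21 E2F matches, 14 begin within 60 bases of the start site, a distance that every match beginning past it meets because the window ends there at 50 bases.

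The members were scattered over the genome, on 16 chromosomes by GENCODE M21 (GRCm38), with at most 7 on 1 chromosome, chromosome 5. They were well expressed by the authors' deposited table, where their mean TPM (a share of all transcripts, corrected for gene length) ranged from 8.83 for Gins3 to 1201 for Rrm2, with a median of 44.6. Depth per library is unknown for genes, and the table gives means without a spread, so the error of each member is the standard error (SE) of the authors' test. The fold changes given with an SE are the product of the deposited statistic and SE, called the test estimate here, on the log2 scale. The deposited log2 fold change itself is the log2 ratio of the mean TPM plus 1. The 2 measures differed by more than 0.1 for 7 of the 46 members, and both were negative for all 46.

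Uhrf1 itself had a mean of 20.4 TPM in Mutant cells, against 118 TPM in Control cells, by the authors' deposited table (estimate −3.12, SE 0.60, adjusted p = 4.01e-06). Uhrf1 per library was not analysed here, so the label of each library could not be checked. The repeat counts, which are given per library, showed that the library labelled Control 3 stood apart from the other Control libraries. The retroviral repeat IAPEz-int took 9.29%, 11.1% and 16.3% of repeat counts in Mutant libraries, against 0.501%, 0.675% and 13.1% in the libraries labelled Control 1, 2 and 3. Total repeat counts lay between 1794698 and 2245124. The Wilson 95% interval of the share, which covers counting error only, ran from 13.09% to 13.18% in the library labelled Control 3 and from 0.664% to 0.686% in Control 2. No source says whether that library entered the Control means of genes, and no gene value could be computed without it.

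Markers of satellite cells and myoblasts were present in both groups. Of 9 such markers 4 rose and 4 fell, and their sum was 3165 TPM in Mutant and 3090 TPM in Control cells by the authors' deposited table. Pax7, the satellite cell factor, rose to 29.6 TPM in Mutant against 23.1 TPM in Control cells, and Myod1, the myoblast factor, fell to 914 TPM in Mutant against 1018 TPM in Control cells, by the authors' deposited table. The 14 listed genes of myogenic differentiation summed to 2425 TPM in Mutant and 4188 TPM in Control cells by the authors' deposited table, where all 14 estimates were negative and 1, Actc1, passed the threshold. Of 10 macrophage and leukocyte markers 7 were listed, summing to 112 TPM in Mutant and 32.6 TPM in Control cells by the authors' deposited table, and 2, Laptm5 and Cd68, rose. Laptm5 alone made up 84.8 TPM in Mutant and 25.1 TPM in Control cells by the authors' deposited table. Ptprc, the pan-leukocyte marker, was near 0, at 0.303 TPM in Mutant and 0.381 TPM in Control cells by the authors' deposited table. Itgam was also near 0, at 0.104 TPM in Mutant and 0.0722 TPM in Control cells. Fcer1g had 19.3 TPM in Mutant and 3.22 TPM in Control cells and did not pass (2.48, SE 1.27, adjusted p = 0.203). Csf1r and Lyz2, below 1 TPM in both groups, had higher means in Mutant and did not pass. Of the 7 listed markers 1, Ptprc, had a negative estimate. Sums of the other lists in Mutant and Control cells were 22.8 and 26.2 TPM for endothelial, 56.1 and 53.7 TPM for fibro-adipogenic, 488 and 466 TPM for smooth muscle and pericyte and 6.10 and 4.19 TPM for Schwann cell markers by the authors' deposited table. The smooth muscle sum was mostly Acta2, at 421 TPM in Mutant and 422 TPM in Control cells by the authors' deposited table. Single markers in these lists changed. The pericyte marker Rgs5 rose to 2.93 TPM in Mutant against 0.359 TPM in Control cells (3.03, SE 0.37, adjusted p = 6.39e-14), and Notch3 rose to 31.4 TPM in Mutant against 18.3 TPM in Control cells (0.77, SE 0.06, adjusted p = 8.62e-34), by the authors' deposited table. Among endothelial markers Tek rose and Pecam1 and Cdh5 fell, the Schwann cell marker Mbp rose, and 0 of 7 fibro-adipogenic markers passed by the authors' deposited table. The part of these differences in the results on replication genes was not tested.

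Most replication genes fell in Uhrf1-deficient cells, though in GINS only 1 of 4 was called lower. Of the 46 members, 40 fell at an adjusted p below 0.05 and 0 rose by the authors' deposited table, where all 46 estimates were negative. The remaining 6, Orc1, Gins2, Gins3, Gins4, Prim2 and Pole2, did not pass. Among all its genes, 8.11% were called lower and 9.02% higher. Among genes averaging 5 TPM or more, a level that all members reach, 17.4% were lower and 15.7% higher. The median test estimate of the members was −0.41, at which a level fell by 24.7%, against 0.01 over all genes and −0.02 over genes with at least 5 TPM. All member estimates lay between −0.59 (Tk1) and −0.02 (Gins4), and 40 of 46 members lay within 2 of their own SE of the members' median. By the test estimate a single member, Tk1, fell by more than 1.5 fold. By mean TPM, Chaf1b was lowest in Mutant, at 64.1% of its Control level, with Tk1 at 68.5%, by the authors' deposited table. The authors' mean TPM were lower in Mutant for 46 of 46 members, and their sum was 3702 TPM in Mutant against 4808 TPM in Control cells. In bulk RNA, fewer cells in S phase and less RNA per cell cannot be told apart. The order of levels was nearly the same in both groups, with a Spearman rho of 0.978 over the 46 members, a description across genes that share the same libraries.

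**Figure D2:**
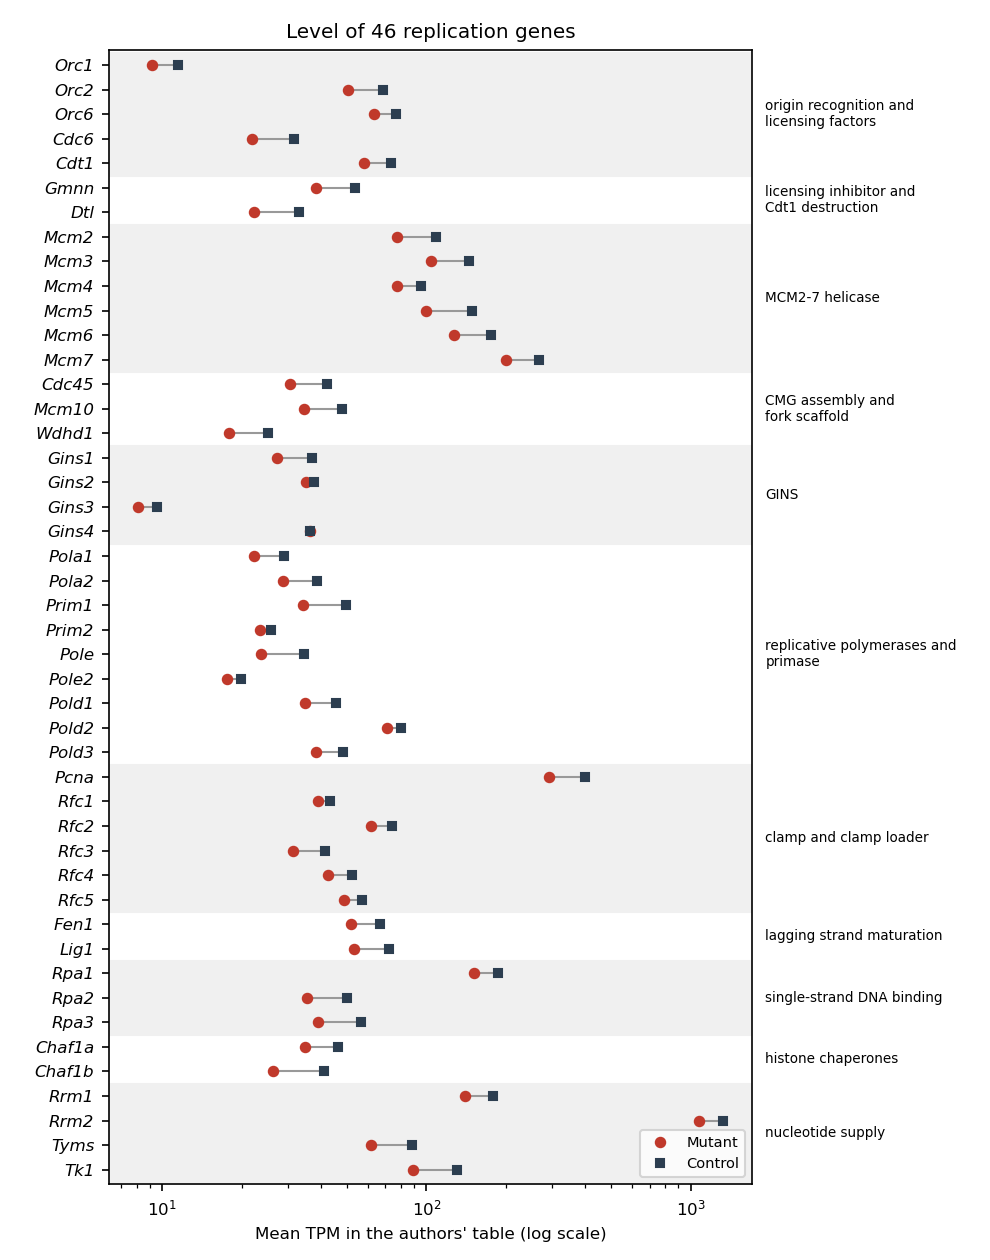
Mean TPM of the 46 replication genes in Mutant (circles) and Control (squares) cells, on a log axis, grouped by role. The authors' means carry no spread, and every Mutant mean lies below its Control mean, by the least for Gins4.

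Of the 5 licensing factors 4 fell. Cdc6, the ATPase that works with the origin complex to load the helicase, had 21.9 TPM in Mutant and 31.5 TPM in Control cells by the authors' deposited table (estimate −0.56, SE 0.11, adjusted p = 3.21e-06). Cdt1, its loading partner, had 57.9 TPM in Mutant and 73.2 TPM in Control cells by the authors' deposited table (estimate −0.28, SE 0.08, adjusted p = 0.0068). Of the origin complex, Orc2 had 50.3 TPM in Mutant and 68.7 TPM in Control cells (−0.35, SE 0.07, adjusted p = 3.25e-06) by the authors' deposited table. Orc6 had 63.5 TPM in Mutant and 76.6 TPM in Control cells (−0.28, SE 0.09, adjusted p = 0.0163) by the authors' deposited table. Orc1, its largest subunit, was scarcer, with 9.18 TPM in Mutant and 11.5 TPM in Control cells and missed the threshold by the authors' deposited table (estimate −0.39, SE 0.15, adjusted p = 0.053). Its interval from −0.69 to −0.10 includes the estimates of the other 4 licensing factors.

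Both brakes on licensing fell as well. Geminin (Gmnn), which binds and blocks Cdt1 after S phase begins, had 38.4 TPM in Mutant and 53.8 TPM in Control cells by the authors' deposited table (estimate −0.51, SE 0.14, adjusted p = 0.00194). Dtl, the adaptor that directs Cdt1 to destruction at PCNA on DNA, had 22.2 TPM in Mutant and 33.0 TPM in Control cells by the authors' deposited table (estimate −0.54, SE 0.10, adjusted p = 3.31e-06). The ratio of Gmnn to Cdt1 in TPM was 0.663 in Mutant and 0.735 in Control cells.

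All 6 subunits of the replicative helicase fell. Mcm5 fell most, to 99.4 TPM in Mutant against 149 TPM in Control cells by the authors' deposited table (estimate −0.57, SE 0.08, adjusted p = 1.19e-10). Mcm4 fell least, with 77.5 TPM in Mutant and 95.5 TPM in Control cells by the authors' deposited table (estimate −0.29, SE 0.07, adjusted p = 0.000917). Between them, Mcm2, Mcm3, Mcm6 and Mcm7 had estimates from −0.51 (Mcm3) to −0.44 (Mcm2) by the authors' deposited table. Although the ring holds 1 copy of each subunit, their mRNA levels were unequal. Mcm7 was the most abundant, at 233 TPM over both groups by the authors' deposited table. Mcm7 made up 29.2% of the summed TPM of the 6 genes in Mutant and 28.3% in Control cells. Mcm2 made up 11.3% in Mutant and 11.6% in Control cells, and Mcm4 11.3% in Mutant and 10.2% in Control cells. The summed TPM of the 6 genes in Mutant was 72.9% of that in Control cells.

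Cdc45 and Mcm10, which join the loaded ring when it is activated, both fell. Cdc45 had 30.4 TPM in Mutant and 42.2 TPM in Control cells (−0.43, SE 0.10, adjusted p = 0.000163) by the authors' deposited table. Mcm10 had 34.4 TPM in Mutant and 47.8 TPM in Control cells by the authors' deposited table (estimate −0.56, SE 0.10, adjusted p = 9.41e-07). Wdhd1, a scaffold that ties polymerase alpha to the helicase, had 18.0 TPM in Mutant and 25.1 TPM in Control cells by the authors' deposited table (estimate −0.47, SE 0.11, adjusted p = 0.000481).

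GINS was the role with the fewest calls, 1 of 4 (25%), and also had the largest median SE of the member roles, 0.14. That share is near the 17.4% called lower among all genes averaging 5 TPM or more. Gins1 fell, with 27.3 TPM in Mutant and 36.9 TPM in Control cells by the authors' deposited table (estimate −0.56, SE 0.15, adjusted p = 0.0017). Gins4, another subunit of the same 4-part complex, had 36.2 TPM in Mutant and 36.4 TPM in Control cells by the authors' deposited table (estimate −0.02, SE 0.12, adjusted p = 0.955). Its interval from −0.25 to 0.21 lies above the members' median of −0.41. Gins2 did not pass, with 34.9 TPM in Mutant and 37.6 TPM in Control cells by the authors' deposited table (estimate −0.27, SE 0.13, adjusted p = 0.162). Gins3, the scarcest member, had 8.11 TPM in Mutant and 9.56 TPM in Control cells by the authors' deposited table (estimate −0.36, SE 0.17, adjusted p = 0.149). The intervals of Gins2 (−0.53 to −0.02) and Gins3 (−0.68 to −0.03) include the members' median. The difference between Gins4 and the other subunits was not tested, since values per library were not analysed here.

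Of 9 polymerase and primase genes, 7 fell. Prim1, the catalytic subunit of primase, fell most, with 34.0 TPM in Mutant and 49.4 TPM in Control cells by the authors' deposited table (estimate −0.56, SE 0.11, adjusted p = 2.66e-06). Prim2, its partner, did not pass, with 23.5 TPM in Mutant and 25.9 TPM in Control cells by the authors' deposited table (estimate −0.16, SE 0.11, interval −0.37 to 0.06, adjusted p = 0.446). The catalytic subunit of polymerase epsilon, Pole, had 23.7 TPM in Mutant and 34.3 TPM in Control cells by the authors' deposited table (estimate −0.41, SE 0.08, adjusted p = 2.75e-06). Its accessory subunit Pole2 did not pass, with 17.6 TPM in Mutant and 19.8 TPM in Control cells by the authors' deposited table (estimate −0.19, SE 0.14, interval −0.47 to 0.08, adjusted p = 0.483). For polymerase delta, the estimates were −0.54 for the catalytic Pold1, −0.38 for Pold2 and −0.41 for Pold3 (SE 0.10 each) by the authors' deposited table. For polymerase alpha, they were −0.40 for Pola1 (SE 0.07) and −0.45 for Pola2 (SE 0.09) by the authors' deposited table.

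The clamp and all 5 subunits of its loader fell. Pcna had 292 TPM in Mutant and 400.2 TPM in Control cells by the authors' deposited table (estimate −0.45, SE 0.06, adjusted p = 2.47e-11). The small loader subunits Rfc2 to Rfc5 had estimates from −0.31 (Rfc5, SE 0.09) to −0.40 (Rfc3, SE 0.12), and their summed TPM in Mutant was 81.6% of that in Control cells by the authors' deposited table. The large subunit Rfc1 had 38.7 TPM in Mutant and 43.1 TPM in Control cells and showed the smallest change of this role by the authors' deposited table (estimate −0.20, SE 0.07, adjusted p = 0.0226). Fen1, the flap nuclease, and Lig1, the ligase that seals Okazaki fragments, both fell by the authors' deposited table (estimate −0.38, SE 0.08 for each). Fen1 had 51.7 TPM in Mutant and 66.7 TPM in Control cells, and Lig1 had 53.1 TPM in Mutant and 72.1 TPM in Control cells, by the authors' deposited table. Pcna has a pseudogene, Pcna-ps2, that is listed as a gene of its own in both tables, so reads could have been split between them. Tyms has an annotated pseudogene, Tyms-ps, which is listed in the table of PT and PUT and not in that of Mutant and Control.

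Within RPA, the 3-part complex that coats single-stranded DNA, all 3 subunits fell, the large one least by its estimate. Rpa1 had 151 TPM in Mutant and 186 TPM in Control cells by the authors' deposited table (estimate −0.26, SE 0.06, adjusted p = 0.000169). Rpa3 had 38.9 TPM in Mutant and 56.7 TPM in Control cells by the authors' deposited table (estimate −0.56, SE 0.15, adjusted p = 0.00243), and Rpa2 had 35.4 TPM in Mutant and 49.9 TPM in Control cells (−0.51, SE 0.10, adjusted p = 9.51e-06).

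Chaf1a and Chaf1b, the histone chaperone genes among the members, both fell. Chaf1b, a subunit of the chromatin assembly factor CAF-1, had 26.3 TPM in Mutant and 41.0 TPM in Control cells by the authors' deposited table (estimate −0.57, SE 0.11, adjusted p = 3.33e-06). Chaf1a, its large subunit, which binds PCNA, had 34.7 TPM in Mutant and 46.5 TPM in Control cells by the authors' deposited table (estimate −0.44, SE 0.08, adjusted p = 3.74e-07).

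All 4 genes of nucleotide supply fell, among them Tk1, with the lowest test estimate of the members, and Rrm2, the most abundant. Thymidine kinase 1 (Tk1) had 89.3 TPM in Mutant and 130 TPM in Control cells by the authors' deposited table (estimate −0.59, SE 0.08, adjusted p = 5.07e-12), and by its estimate it fell by 33.7%. Thymidylate synthase (Tyms) had 61.8 TPM in Mutant and 88.3 TPM in Control cells by the authors' deposited table (estimate −0.49, SE 0.09, adjusted p = 2.47e-06). Rrm2, the small subunit of ribonucleotide reductase, had 1074 TPM in Mutant and 1328 TPM in Control cells by the authors' deposited table (estimate −0.32, SE 0.04, adjusted p = 9.3e-13). The large subunit Rrm1 had 140 TPM in Mutant and 178 TPM in Control cells by the authors' deposited table (estimate −0.38, SE 0.05, adjusted p = 2.79e-13). Rrm2 thus exceeded Rrm1 by 7.64 fold in Mutant and 7.45 fold in Control cells.

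A further 64 replication genes were listed apart from the members, with earlier results of these data known. Of these 64 genes, 40 (62.5%) fell and 3 (4.7%) rose by the authors' deposited table. Their median estimate was −0.34, against −0.41 over the members. Among all genes averaging 5 TPM or more, 17.4% were lower and 15.7% higher. Of 10 other chaperones and chromatin assembly genes 9 (90%) fell. Of 5 other polymerase subunits 1 fell and 1 rose (20% each). Those shares are near the ones over all genes, so they are no result about these subunits. The deepest falls were those of Dna2, a nuclease and helicase of Okazaki fragments, and of Shmt1, which makes one-carbon units for thymidylate. Dna2 had 6.84 TPM in Mutant and 12.3 TPM in Control cells by the authors' deposited table, and by its estimate it fell by 49.8% (SE 0.16 on the log2 scale, adjusted p = 5e-08). Shmt1 had 36.1 TPM in Mutant and 68.2 TPM in Control cells by the authors' deposited table (estimate −0.82, SE 0.09, adjusted p = 7.12e-19). Nasp, a chaperone of H3 and H4, had 151 TPM in Mutant and 223 TPM in Control cells by the authors' deposited table (estimate −0.62, SE 0.07, adjusted p = 2.84e-15).

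The 3 genes that rose, a smaller share than among all genes averaging 5 TPM or more, were Pold4, Rrm2b and Tk2. Pold4, the small subunit of polymerase delta, had 30.8 TPM in Mutant and 18.2 TPM in Control cells by the authors' deposited table (estimate 0.75, SE 0.20, adjusted p = 0.00202). Rrm2b, the p53-induced form of the small reductase subunit, had 17.1 TPM in Mutant and 14.4 TPM in Control cells by the authors' deposited table (estimate 0.38, SE 0.14, adjusted p = 0.0353). Tk2, the mitochondrial thymidine kinase, had 11.5 TPM in Mutant and 9.16 TPM in Control cells by the authors' deposited table (estimate 0.47, SE 0.18, adjusted p = 0.049). Rrm2 and Tk1, the forms made in S phase, fell.

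**Figure D3:**
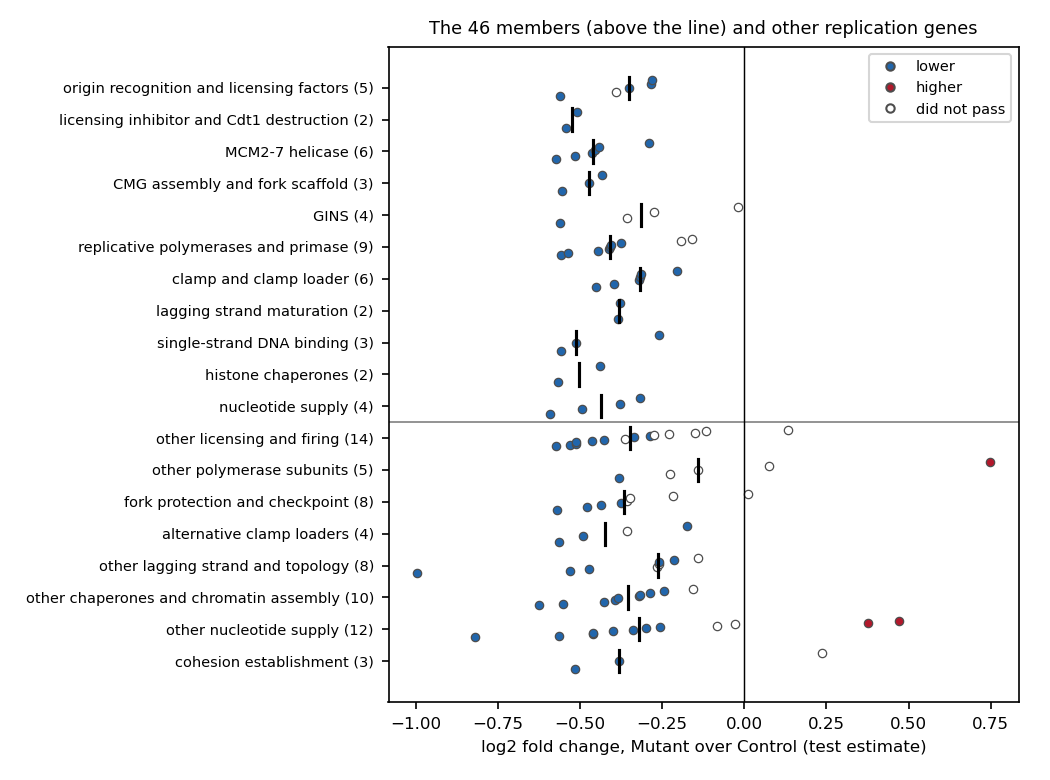
Test estimates (log2, Mutant over Control) of the 46 members and of 64 other replication genes by role, with the number of genes in brackets. Each point is a gene, filled blue where it fell, red where it rose and white where it did not pass, and the bar is the median of the role. All member roles have a negative median, and the 3 genes that rose, Pold4, Rrm2b and Tk2, lie outside the members.

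In the second table the same genes were lower in the PT arm for most roles, by amounts that varied more between members. Uhrf1 had a log2 fold change of −4.00 in PT over PUT by the authors' deposited table (SE 0.27, adjusted p = 1.81e-48). Of the 46 members, 36 were lower in PT and 3, Pole2, Rfc5 and Rrm2, were higher by the authors' deposited table, with a median of −0.75. Calls were common in that table, with 22.1% of all genes lower and 25.1% higher in PT, and among genes with a mean normalised count of at least 100, a level that all members reach, 42.1% lower and 28.8% higher. The median was 0.14 over all genes and −0.12 over genes at that level. The members ranged from −2.06 (Gmnn) to 0.53 (Pole2), and 15 of 46 lay within 2 of their own SE of the members' median, against 40 in the comparison of Mutant with Control. Genes in general also spread more in PT over PUT. Of genes with at least 100 normalised counts, 3187 of 12170 lay that close to their own median. In Mutant over Control, 5780 of 10238 genes with at least 5 TPM did so. The wider spread is thus not particular to the members. The members' SE were of similar size in both tables, 0.05 to 0.18 in PT over PUT and 0.04 to 0.17 in Mutant over Control. Of 9 satellite cell and myoblast markers, 6 were lower in PT and 3 higher. Of 14 genes of myogenic differentiation, 3 were lower and 1 was higher. Among markers of other cells, 3 of 5 listed macrophage and leukocyte and 3 of 7 endothelial markers were called higher. So were 2 of 5 fibro-adipogenic, 4 of 6 smooth muscle and pericyte and 1 of 4 Schwann cell markers. In these lists 1 macrophage and 1 smooth muscle marker were called lower. Some that were called higher had low mean normalised counts, such as Lyz2 (2.26), Emcn (5.44) and Dcn (5.63). Others had more counts, such as Laptm5 (555), higher by 2.00 (SE 0.12), and Cspg4 (1042), higher by 0.86 (SE 0.10). The part of these markers in the results on replication genes was not tested. The sources used here do not state how many libraries stand behind the second table, their genotype, their treatment or the level in each arm.

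**Figure D4:**
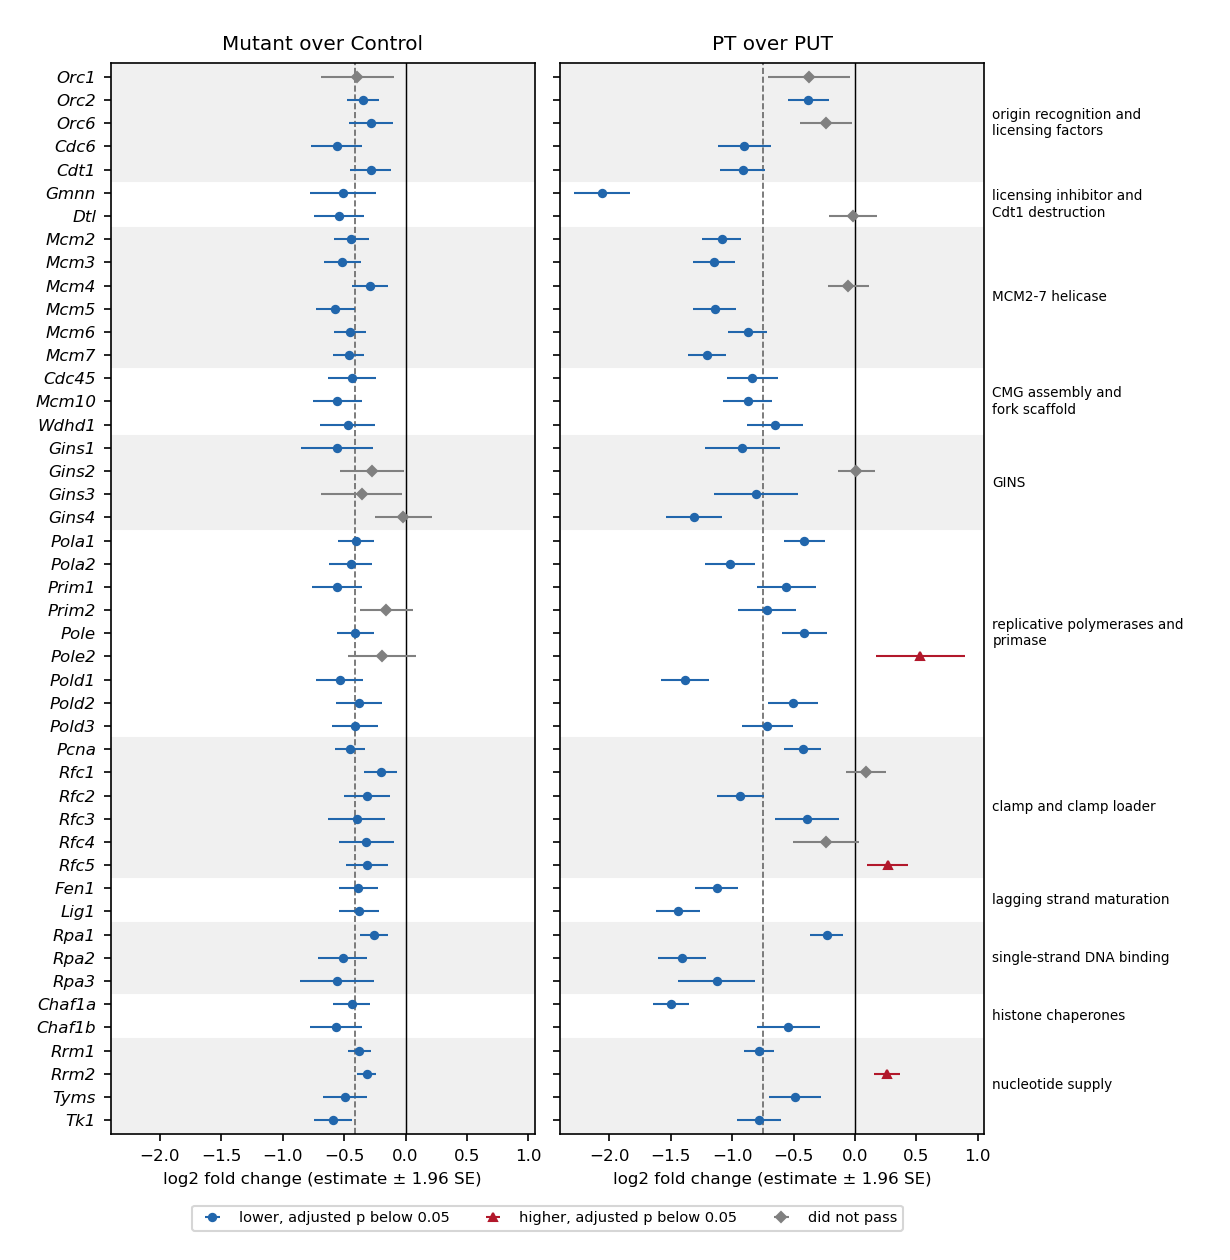
Log2 fold changes of the 46 members in Mutant over Control (left panel, test estimates) and in PT over PUT (right panel), as points with 95% intervals. Dashed lines mark the members' medians, −0.41 and −0.75, and colours and shapes mark the authors' calls at an adjusted p below 0.05. The left points form a narrow column, while the right points spread from −2.06 for Gmnn to 0.53 for Pole2. Genes in general at the members' level, which are not drawn, also spread more in PT over PUT.

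Of the licensing factors, Cdt1 (−0.91, SE 0.09, adjusted p = 6.42e-21), Cdc6 (−0.90, SE 0.11) and Orc2 (−0.38, SE 0.09) were lower in PT by the authors' deposited table. Orc1 was at −0.37 (SE 0.17, adjusted p = 0.0587) and Orc6 at −0.24 (SE 0.11, adjusted p = 0.0573), and neither passed, by the authors' deposited table. Of the factors that join the ring, Mcm10 was lower at −0.87 (SE 0.10), Cdc45 at −0.84 (SE 0.10) and the scaffold gene Wdhd1 at −0.65 (SE 0.12) by the authors' deposited table.

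Within several roles and complexes, some genes were lower in PT and others did not pass or were higher. Geminin (Gmnn) had the lowest fold change, 4.16-fold lower in PT (−2.06, SE 0.12, adjusted p = 2.79e-68), while Dtl, the other brake on Cdt1, was at −0.02 (SE 0.10, adjusted p = 0.907) by the authors' deposited table. In the helicase, Mcm2, Mcm3, Mcm5, Mcm6 and Mcm7 were lower in PT, with fold changes from −0.87 (Mcm6, SE 0.08) to −1.20 (Mcm7, SE 0.08) by the authors' deposited table. Mcm4 was at −0.06 (SE 0.09, interval −0.22 to 0.11, adjusted p = 0.636) by the authors' deposited table, and it was also the helicase subunit with the smallest change in Mutant. Mcm4 and Gins2 had mean normalised counts of 1713 and 1226 by the authors' deposited table, and their SE were 0.09 and 0.08.

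In GINS, Gins4 was lower in PT at −1.31 (SE 0.12, adjusted p = 9.69e-28), and Gins2 was at 0.01 (SE 0.08, interval −0.14 to 0.16, adjusted p = 0.933), by the authors' deposited table. Gins1 and Gins3 were lower in PT, at −0.92 (SE 0.16) and −0.81 (SE 0.17) by the authors' deposited table. The difference of Gins4 between the tables was not tested, since they may share libraries.

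Among polymerases, Pold1 was lower in PT at −1.39 (SE 0.10) and Pole2 was higher by 0.53 (SE 0.18, adjusted p = 0.0096) by the authors' deposited table. Pole and Pola1 were each lower at −0.41 (SE 0.09) by the authors' deposited table. Of the clamp loader, Rfc2 was lower (−0.93, SE 0.10), Rfc5 was higher (0.27, SE 0.09, adjusted p = 0.00438) and neither Rfc1 (0.09, SE 0.08, adjusted p = 0.411) nor Rfc4 (−0.23, SE 0.14, adjusted p = 0.158) passed by the authors' deposited table. Pcna was lower at −0.43 (SE 0.08) in PT by the authors' deposited table, beside −0.45 in Mutant.

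Chaf1a, Lig1 and Rpa2 were among the lowest members in PT, and the flap nuclease gene Fen1 was lower at −1.13 (SE 0.09) by the authors' deposited table. Chaf1a was lower at −1.50 (SE 0.08, adjusted p = 1.26e-86), Lig1 at −1.44 (SE 0.09) and Rpa2 at −1.41 (SE 0.10), while Rpa1 was at −0.23 (SE 0.07), by the authors' deposited table. Chaf1b, which had the deeper estimate of the chaperones in Mutant, was lower at −0.54 (SE 0.13) in PT by the authors' deposited table. Rrm2 was higher in PT by 0.26 (SE 0.05, adjusted p = 9.81e-06) and Rrm1 lower at −0.78 (SE 0.06, adjusted p = 2.23e-34), by the authors' deposited table.

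The calls of single members are set side by side as a description, since the tables may share libraries. Rfc5 and Rrm2 were lower in Mutant and higher in PT. A further 5, Orc6, Dtl, Mcm4, Rfc1 and Rfc4, were lower in Mutant and did not pass in PT. Gins3, Gins4 and Prim2 did not pass in Mutant and were lower in PT, Pole2 did not pass in Mutant and was higher in PT, and Orc1 and Gins2 passed in neither. The others were lower in each. Of the 64 other replication genes, 30 (46.9%) were lower and 11 (17.2%) higher in PT by the authors' deposited table. The share lower is near the 42.1% of all genes with at least 100 normalised counts, so it is no result about these genes. Dna2 (−1.18, SE 0.16), Nasp (−0.99, SE 0.08) and Shmt1 (−0.71, SE 0.11) were lower in PT and Rrm2b higher (0.70, SE 0.15), as in Mutant, by the authors' deposited table. Pold4 and Tk2 did not pass in PT (adjusted p = 0.382 and 0.311) by the authors' deposited table.

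Members with and without an E2F word are given side by side, with no test. In Mutant over Control the 15 members with a word had a median of −0.41, with 12 lower, and the 23 matched members without a word had a median of −0.44, with 23 lower. In PT over PUT the medians were −0.87 with a word and −0.56 without, with 12 of 15 and 18 of 23 lower in PT. These are descriptions over members that share libraries. Of the 6 members whose words all lie after the start site, Cdt1, Lig1, Mcm3, Pold1 and Pold3 were lower in PT and Pole2 was higher. Mcm7 has a word upstream, which is printed above, and another after the start site.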

How the data were processed

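The members and lists were chosen with earlier results of these data known. The submitters' processing notes name STAR 2.7.6a for Mutant and Control reads and HISAT2 2.2.1 for Cre Control reads, with DESeq2, featureCounts 2.0.1 and Trim Galore 0.6.6 for all, and the builds GRCm38 and mm10. The authors deposited, per the file headers, mean TPM of each group, a log2 fold change, its standard error, a test statistic (a score value) and p-values for genes. For PT and PUT they deposited a mean signal (normalised counts over both arms), a log2 fold change, its error, the statistic (score) and p-values. They deposited counts of repeats per library, used here for shares only. The deposited log2 ratio of TPM and the test estimate (statistic times standard error) are separate measures.

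No test was refitted, because the gene tables hold comparisons only. Calls use the deposited adjusted p below 0.05, which equals Benjamini-Hochberg adjustment over all genes of each table within 0.000884. Intervals are 95% normal intervals from the SE. All 46 members are named, with values for the lowest and highest of each role and all that did not pass; of the other replication genes, the 3 lowest and 3 highest called. Scripts ran in Python 3.11.15 with pandas 2.3.3, statsmodels 0.14.6 and scipy 1.17.1, and the calling code was tested on simulated data. Alternatives were a threshold of 0.01, re-adjustment, minimums of 1 TPM or 10 normalised counts, centring on the median gene, and the TPM ratio with pseudocounts of 0.1, 1 and 5. The comparisons with Cre Control were not analysed here.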

Additional observations from a re-analysis of the deposited data

How the results depend on the processing

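No member changed direction under the alternatives that were run, and counts of calls moved by at most 3 members. The number of members lower in Mutant was 40, and 37 at an adjusted p below 0.01 and 41 with genes under 1 TPM left out, where Orc1 passed. No member was higher in Mutant under these alternatives; the tool behind that count is the authors' test, and no second tool could be run. Their median was −0.41, and between −0.42 and −0.38 with the TPM ratio at pseudocounts of 0.1 to 5. In PT over PUT the number of lower members was 36, or 38 with genes under 10 normalised counts left out, and 3 were higher throughout. Centring on the median of genes with at least 1 TPM or 10 normalised counts moved values by less than 0.01; the medians over all genes and over genes at the members' level lie farther from 0 in PT over PUT, at 0.14 and −0.12, and centring on those was not run. Of the other replication genes, 3 rose, but 1, Pold4, at an adjusted p below 0.01. No paired analysis was possible because the gene tables hold no values per library, and for the same reason no replicate was left out. The effect of the library labelled Control 3 on the gene means was therefore not measured.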
